A study of Mus musculus with 4 samples.

Results

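The genes of the pyruvate dehydrogenase switch were examined in mouse bone marrow-derived macrophages cultured with necrotic fat. They were 10 of the 17013 genes listed by symbol, namely the kinases Pdk1, Pdk2, Pdk3 and Pdk4, the phosphatases Pdp1 and Pdp2, the E1 subunits Pdha1 and Pdhb, and the mitochondrial pyruvate carriers Mpc1 and Mpc2. The genes were chosen by their role and with their Fat and Con values in these same libraries known, so the difference between the media is given for each of them as a description, without a test. All 10 passed the filter on low values, with between 47 and 4028 reads in a library.

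The pyruvate dehydrogenase complex turns pyruvate, the end product of glycolysis, into acetyl-CoA inside the mitochondrion. The kinases phosphorylate the E1 enzyme and switch the complex off, and the phosphatases remove the phosphate and switch it on. Pdk4 is the isoform known as a target of fatty acid sensing through the PPAR nuclear receptors, and Pdk1 is known as a target of the hypoxia-inducible factor HIF. In macrophages the complex lies where glycolysis, the tricarboxylic acid cycle and fatty acid oxidation meet.

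Con was the fat control medium, the middle layer of a digested and freeze-thawed mouse abdominal fat preparation, and Fat was the high-fat-containing top layer. The cells were WT (C57BL/6 male mice), were grown from bone marrow with M-CSF, and sat on porous inserts above the fat medium. Artificial necrotic bone fluid (aNBF), made from freeze-thawed mouse bone and marrow, was added to both groups for 24 h, so no group without aNBF or without a fat preparation entered the comparison. RNA was sequenced from 2 libraries per group, and the labels do not say whether these came from separate cultures or animals, so the spread between them may be technical. The libraries held between 33573852 and 40785872 reads on genes. A single read was worth between 0.0244 and 0.0295 CPM (reads relative to the library total, as scaled by the authors), and the counting intervals below cover counting error only. In bulk RNA, fewer cells of a type and less RNA per cell cannot be told apart. The macrophage markers Csf1r (between 1477 and 1852 CPM), Cd68 and Lyz2 were abundant in all 4 libraries. Of the 9 macrophage markers tested, however, 2 fell and 0 rose in Fat by limma (22.2%, against 9.0% of all genes). In 5 of the 9 both Fat libraries lay below both Con libraries, and in 0 above, where 55.6% of all genes did not overlap in either direction. The summed level of the markers went from 35179 and 33247 CPM in Con to 27858 and 26402 CPM in Fat.

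The upstream sequences of the kinase genes are shown because these 4 genes encode the same activity and their mRNA stood differently in the 2 media. RefSeq windows on GRCm38.p6 were at hand for 9 of the 10 genes, and each run below is the 250 bases before the annotated start, 5′ to 3′ on the strand of the gene. Capitals mark every match, on either strand, to the ACGTG form of the HIF core, the CCAAT box CCAAT, the GC box GGGCGG and the TATA box TATAAA. The GCGTG form of the HIF core was not searched.
Pdk4, chr6:5496279-5496528, minus strand: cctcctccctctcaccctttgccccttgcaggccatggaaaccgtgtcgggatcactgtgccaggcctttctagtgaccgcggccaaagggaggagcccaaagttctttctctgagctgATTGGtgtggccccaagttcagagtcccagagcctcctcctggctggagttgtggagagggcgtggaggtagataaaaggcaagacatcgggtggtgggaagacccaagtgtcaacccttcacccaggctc
Pdk1, chr2:71872974-71873223, plus strand: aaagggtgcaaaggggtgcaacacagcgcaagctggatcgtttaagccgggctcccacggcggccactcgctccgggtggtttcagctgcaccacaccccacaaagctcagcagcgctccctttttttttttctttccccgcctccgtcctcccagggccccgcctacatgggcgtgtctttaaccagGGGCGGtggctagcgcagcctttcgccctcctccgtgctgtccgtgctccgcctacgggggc
Pdk2, chr11:95041372-95041621, minus strand: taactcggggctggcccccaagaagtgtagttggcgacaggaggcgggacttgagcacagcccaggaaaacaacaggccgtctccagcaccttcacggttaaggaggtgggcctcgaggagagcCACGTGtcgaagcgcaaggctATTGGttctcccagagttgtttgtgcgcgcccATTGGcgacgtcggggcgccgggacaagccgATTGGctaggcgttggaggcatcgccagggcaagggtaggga
Pdk3, chrX:93832151-93832400, minus strand: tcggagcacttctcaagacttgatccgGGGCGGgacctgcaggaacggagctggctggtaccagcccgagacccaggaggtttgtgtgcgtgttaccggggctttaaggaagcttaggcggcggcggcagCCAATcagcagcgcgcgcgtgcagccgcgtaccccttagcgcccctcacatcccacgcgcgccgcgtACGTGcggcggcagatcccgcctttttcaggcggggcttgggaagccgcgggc

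The Pdk4 window held 1 CCAAT box, 131 bases before the start, and 0 matches to the other 3 motifs. Of the 32851 mouse windows of the same length, 33.8% held a CCAAT box, 32.7% a GC box, 16.6% ACGTG and 12.4% the TATA box. The Pdk1 window shown held 1 GC box and 0 matches to ACGTG. The unsearched form GCGTG can be read in the windows shown for Pdk1, Pdk4 and Pdk3, so absence of a HIF core cannot be concluded. Pdk1 and Pdk2 each have a second RefSeq window, not shown, and both of these held 0 matches to any motif searched. ACGTG was present in the window shown for Pdk2, where 2 overlapping matches on opposite strands form CACGTG, and in the windows of Pdk3, Pdhb and Pdp2. A search of all 12 windows of the 9 genes for the nuclear receptor motif AGGTCA (in 14.0% of all windows) found 1 match, in the second window of Mpc1. The forkhead core GTAAACA (3.17% of all windows), AGGTCA repeated after 1 base (0.0335%) and the glucocorticoid element, AGAACA and TGTTCT with 3 bases between them (0.00913%), had 0 matches in the 12 windows. A match here is a match of letters, and elements outside the windows were not examined.

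Of the 4 kinases, Pdk4 and Pdk1 stood higher in Fat, and Pdk2 and Pdk3 were close to their Con levels. Pdk4 stood at 1.39 CPM in the first Con library and 1.92 CPM in the second, against 13.5 and 14.8 CPM in the Fat libraries. Both Fat libraries lay far above both Con libraries, and the lower Fat value was 7.02 times the higher Con value. The means were 1.65 ± 0.377 CPM (SD, n = 2) in Con and 14.1 ± 0.940 CPM (SD, n = 2) in Fat, a ratio of 8.56. On the log2(CPM + 0.1) scale used for all differences, which understates the change of low genes, the difference was 3.04 (standard error 0.17). It ranked 3 from the highest of the 12470 genes compared, and leaving out single libraries gave 2.82 to 3.26. With a pseudocount of 1 CPM it was 2.52.

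The Con values of Pdk4 rested on few reads. They came from 47 and 72 reads, against 503 and 607 reads in Fat. The 95% exact Poisson intervals were 1.02 to 1.84 CPM and 1.5 to 2.42 CPM in the Con libraries, which overlap each other, and 12.3 to 14.7 CPM and 13.7 to 16.0 CPM in the Fat libraries.

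Pdk1, the kinase that adds phosphate to the largest number of E1 sites, was at 37.1 and 42.4 CPM in Con and at 54.6 and 57.0 CPM in Fat. Both Fat libraries lay above both Con libraries, and the Con replicates differed from each other more than the Fat replicates did. Its means were 39.7 ± 3.80 CPM (SD, n = 2) in Con and 55.8 ± 1.66 CPM (SD, n = 2) in Fat. The log2 difference was 0.49 (standard error 0.08), with 0.39 to 0.59 when single libraries were dropped.

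Pdk2, the most widely expressed kinase across tissues, was at 15.0 and 15.8 CPM in Con and at 14.7 and 13.7 CPM in Fat. The Fat libraries were the lower ones by a small margin (log2 difference -0.12, standard error 0.09). Pdk3 was at 16.1 and 14.8 CPM in Con and at 14.9 and 14.4 CPM in Fat, so its groups overlapped (log2 difference -0.07, standard error 0.09). For both genes the difference was smaller than, or close to, the gap between replicates of 1 group, which was up to 0.11 for Pdk2 and 0.12 for Pdk3 on the log2 scale.

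**Figure D1:**
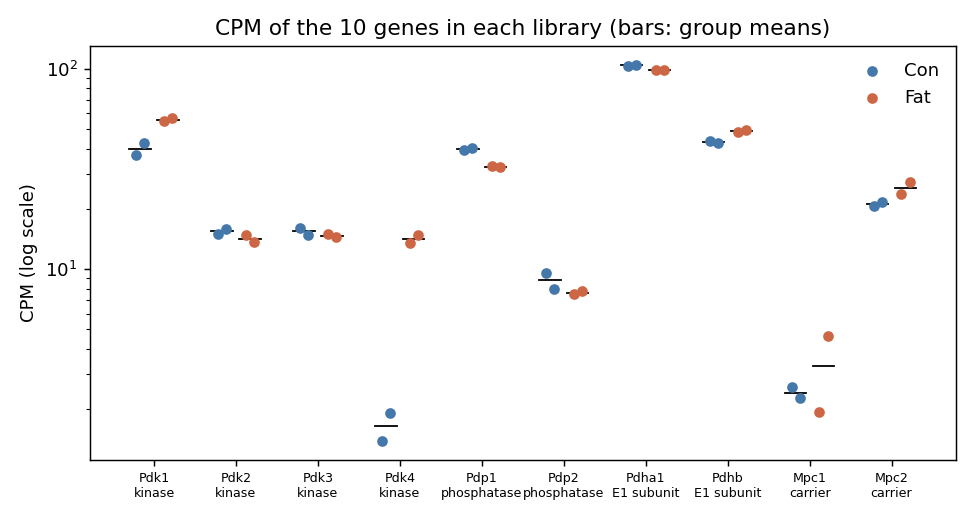
CPM of each of the 10 genes (vertical axis, log scale) in the 2 Con and 2 Fat libraries, with points for libraries and bars for group means. Pdk4 moved from below 2 CPM to above 13 CPM, Pdk1 and Pdp1 were separated by smaller steps in opposite directions, and the Fat libraries of Mpc1 lay on either side of Con.

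Per length, in TPM (reads scaled by gene length and by the library total), the make-up of the kinase pool differed between the media. Pdk4 made up 1.80% and 2.40% of the summed kinase TPM in Con, and 13.7% and 15.0% in Fat. Pdk1 made up 32.1% and 35.4% in Con and 37.1% and 38.5% in Fat. The shares of Pdk2 (29.9% and 30.2% in Con, 22.9% and 21.2% in Fat) and Pdk3 (36.2% and 32.0% in Con, 26.3% and 25.2% in Fat) were smaller in Fat, while their own TPM stayed near the Con values. The 4 kinases together summed to 48.7 and 49.6 TPM in Con and to 63.0 and 63.1 TPM in Fat. Without Pdk4 the sums were 47.8 and 48.4 TPM in Con and 54.3 and 53.6 TPM in Fat, so part of the higher sum was Pdk1.

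**Figure D2:**
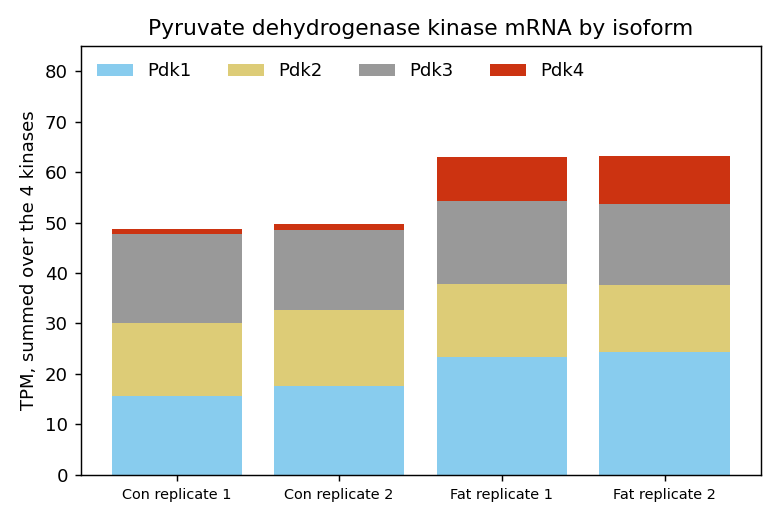
TPM of the 4 kinases stacked for each library, starting at 0. The Pdk4 segment is 0.878 and 1.19 TPM in Con and 8.65 and 9.49 TPM in Fat, and the Pdk1 segment is larger in both Fat libraries.

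The phosphatases, which oppose the kinases, stood lower in Fat. Pdp1, the calcium-stimulated isoform, was at 39.3 and 40.1 CPM in Con and at 32.7 and 32.2 CPM in Fat. The replicates nearly coincided within each group, and both Fat libraries were below both Con libraries. Its means were 39.7 ± 0.556 CPM and 32.5 ± 0.400 CPM (SD, n = 2 each), a log2 difference of -0.29 (standard error 0.06). Pdp2 was at 9.61 and 7.94 CPM in Con and at 7.47 and 7.81 CPM in Fat. The second Con library lay close to the Fat libraries, and the difference (log2 -0.19, standard error 0.12) was smaller than the gap of 0.27 between the Con replicates. Per length, the ratio of summed kinase to summed phosphatase TPM was 1.90 and 2.03 in Con and 2.97 and 2.99 in Fat. These are ratios of mRNA, and neither protein nor phosphorylation was measured in these libraries.

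The E1 subunits form the enzyme that the switch acts on. Pdha1, the alpha subunit that carries the phosphorylated serines, was at 103.3 and 104.8 CPM in Con and at 98.5 and 98.2 CPM in Fat (log2 difference -0.08, standard error 0.05). Pdhb, the beta subunit, was at 43.8 and 42.4 CPM in Con and at 48.1 and 49.3 CPM in Fat (log2 difference 0.18, standard error 0.06). The subunits thus differed in opposite directions and by little, with groups that did not overlap in either gene. The ratio of Pdha1 to Pdhb in TPM was 1.27 and 1.33 in Con and 1.10 and 1.07 in Fat. Of the 75-base stretches of Pdhb transcripts, 24.4% also matched other genes such as Gm6123, so its reads could be shared with them. For Pdha1 this was 9.73%, chiefly the antisense neighbour Map3k15.

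The carriers MPC1 and MPC2 together bring pyruvate across the inner mitochondrial membrane. Mpc2 was at 20.7 and 21.8 CPM in Con and at 23.8 and 27.1 CPM in Fat. Both Fat libraries were higher (log2 difference 0.26, standard error 0.08), and the Fat replicates differed by 0.18 on the same scale. Mpc1 was at 2.57 and 2.27 CPM in Con and at 1.93 and 4.63 CPM in Fat. Its Fat libraries lay on opposite sides of Con and their 95% Poisson intervals, 1.51 to 2.43 CPM and 4.0 to 5.34 CPM, did not overlap. The log2 difference of Mpc1 was 0.30 (standard error 0.35), but -0.31 without Fat replicate 2 and 0.91 without Fat replicate 1. Of its stretches, 35.8% also matched other genes, the pseudogene Mpc1-ps among them, so the deposited level of Mpc1 is uncertain. Per length, Mpc2 exceeded Mpc1 by 8.57 and 10.2 times in Con and by 13.1 and 6.20 times in Fat.

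**Figure D3:**
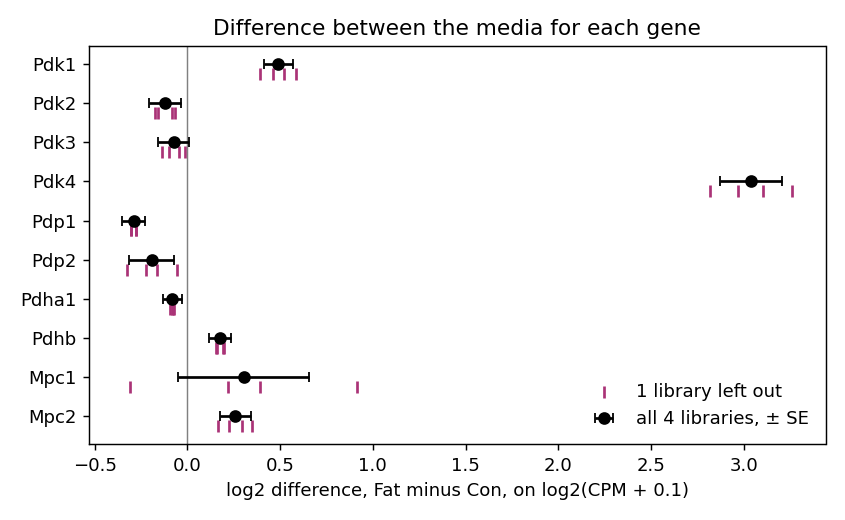
Log2 difference between Fat and Con for each gene (horizontal axis, on log2(CPM + 0.1)), with points and standard errors from all 4 libraries and ticks for each library left out. Pdk4 stands at 3.04, Pdk1 at 0.49 and Pdp1 at -0.29, and the ticks of Mpc1 run from -0.31 to 0.91.

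Ordered by TPM, the E1 subunits and Mpc2 were the most abundant in both media. In Con the order was Pdha1 (81.7 ± 0.249 TPM), Pdhb (63.0 ± 2.32), Mpc2 (53.8 ± 1.15), Pdp1 (19.6 ± 0.00443), Pdk3 (16.8 ± 1.25), Pdk1 (16.6 ± 1.36), Pdk2 (14.8 ± 0.335), Mpc1 (5.77 ± 0.585), Pdp2 (5.44 ± 0.806) and Pdk4 (1.04 ± 0.222 TPM, SD, n = 2 throughout). The libraries of Pdk3 and Pdk1 overlapped there, as did those of Mpc1 and Pdp2, so these neighbours could not be ordered. In Fat, Pdk1 (23.8 ± 0.696 TPM) stood at place 4, above Pdp1 (16.3 ± 0.212 TPM) and Pdk3 (16.2 ± 0.448 TPM), whose libraries overlapped. Pdk4 (9.07 ± 0.598 TPM) had left the last place and overlapped with Mpc1 (8.01 ± 4.67 TPM), which in turn overlapped with Pdp2 (4.84 ± 0.145 TPM).

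Across all genes, limma called 1122 of 12470 genes (9.0%) changed at a Benjamini-Hochberg adjusted p-value under 0.05, 498 higher (3.99%) and 624 lower (5.0%) in Fat. Without Fat replicate 2 there were 529 calls and without Con replicate 1 there were 666. With TPM in place of CPM the split was 237 higher and 170 lower. For reference, 3 of the 10 genes lie within those 1122, but the genes were selected on this comparison, so this is no test of any of them and nothing is read from the count. The groups did not overlap in 8 of the 10 genes, against 55.6% of all genes tested. The median log2 difference of the 10 genes was 0.05 and that of all genes 0.01, and without Fat replicate 2 the former was -0.06.

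The rest of the pathway was listed by role as 36 genes, of which 33 passed the filter. This list too was written with earlier results of these libraries known, so its counts are not independent evidence. Of these 33, 3 rose and 1 fell, which is 12.1% against 9.0% of all genes. All 4 called genes belong to pyruvate supply and its other fates. Of the 11 genes tested in that class, 9 had an unadjusted limma p-value under 0.05, 5 higher and 4 lower in Fat. The share of all genes under that unadjusted cut-off is not given here. Nothing is therefore read from this count or from the other unadjusted counts below. The same 4 calls in number, 3 higher and 1 lower, came from edgeR and from DESeq2, and without Fat replicate 2 the count was 1. Without Con replicate 1 or without Fat replicate 1 it was 2. The median log2 difference of the 33 genes was -0.02.

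Slc16a3, which encodes the lactate exporter MCT4, was at 51.5 and 48.1 CPM in Con and at 77.3 and 93.0 CPM in Fat. It rose by a log2 difference of 0.77 (standard error 0.09, limma adjusted p = 0.00506), with both Fat libraries above both Con libraries. Pkm, the pyruvate kinase that makes pyruvate, was at 1652 and 1767 CPM in Con and at 2251 and 2256 CPM in Fat, and it rose by 0.40 (standard error 0.08, limma adjusted p = 0.0235). Ldha, the lactate dehydrogenase subunit that favours lactate formation, was at 619.7 and 685.9 CPM in Con and at 854.1 and 818.1 CPM in Fat, and it rose by 0.36 (standard error 0.07, limma adjusted p = 0.0249). Ldhb, the partner subunit, was at 38.3 and 38.9 CPM in Con and at 31.3 and 30.1 CPM in Fat, and it fell by 0.33 (standard error 0.06, limma adjusted p = 0.0213). The calls of Ldha and Ldhb were less stable than that of Slc16a3. Each was kept in 7 of 12 alternative settings, against 11 for Slc16a3 and 9 for Pkm. Ldha was not called without Con replicate 1 (limma adjusted p = 0.0601), Fat replicate 1 (0.0757) or Fat replicate 2 (0.0598), and Ldhb was not called without Con replicate 1 (0.0573), Con replicate 2 (0.0521) or Fat replicate 2 (0.104). Pkm was not called without Fat replicate 1 or without Fat replicate 2. Shared sequence touches 3 of them, with 52.9% of the stretches of Pkm, 36.0% of Ldha and 48.3% of Ldhb found in other genes, chiefly unnamed Gm loci, and 0 for Slc16a3.

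The remaining 22 genes that passed the filter held 0 calls by limma, edgeR and DESeq2, and 4 of them had an unadjusted limma p-value under 0.05, all lower in Fat. Among the other components of the complex, Dlat (E2), Dld (E3), Pdhx (the E3-binding protein) and Pdpr (the phosphatase's regulatory subunit), the log2 differences reached at most 0.15 for Pdpr (standard error 0.09, limma adjusted p = 0.362), which was at 14.2 and 12.9 CPM in Con and at 14.5 and 15.6 CPM in Fat. Of 6 genes for lipoate and thiamine, cofactors of the complex, Lipt2, a lipoate transferase, had the largest difference (-0.29, standard error 0.13, adjusted p = 0.219). Of 5 genes around acetyl-CoA use this was Acat1, which cleaves acetoacetyl-CoA (-0.24, standard error 0.07, adjusted p = 0.0748). Of 7 genes of the related branched-chain and 2-oxoglutarate complexes it was Ppm1k, the phosphatase of the branched-chain complex (-0.36, standard error 0.11, adjusted p = 0.0976).

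Genes known to respond to regulators of Pdk4 and Pdk1 were listed in the same way, with Pdk4 and Pdk1 themselves left out. Of 18 PPAR target genes that passed the filter, 10 rose and 0 fell by limma, by edgeR and by DESeq2 (1 was lower at an unadjusted p-value under 0.05), and the median log2 difference was 0.38. Of 21 HIF target genes, 13 rose and 0 fell by each of these tools (0 were lower at an unadjusted p-value under 0.05), with a median of 0.34, and without Fat replicate 2 there were 8 HIF calls. These shares, 55.6% and 61.9%, stand beside 9.0% of all genes, but both lists were written with earlier results of these libraries known and are not independent evidence. Of 11 FOXO target genes, 3 rose and 1 fell (36.4% called, median 0.04), with 2 calls in all without Fat replicate 2. Of 10 glucocorticoid target genes, 2 rose and 1 fell (30.0% called, median 0.14), with 1 call in all without Fat replicate 2 or without Con replicate 1. These shares too lie above the 9.0% of all genes, and the same limit applies to these lists. Ldha stands in the HIF list as well as in the pathway list.

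Within the PPAR list the largest rises were those of Angptl4, an inhibitor of lipoprotein lipase (log2 difference 2.41, limma adjusted p = 5.43e-06), Hilpda, a lipid droplet protein that HIF also controls (2.33, adjusted p = 2.00e-05), and Ucp3, a mitochondrial carrier (1.80, adjusted p = 0.0104), which was below 3 CPM in every library. Within the HIF list they were those of Ankrd37 (1.85, adjusted p = 0.0025), the oxygen sensor Egln3 (1.30, adjusted p = 0.00726) and the peptide hormone gene Adm (0.97, adjusted p = 0.0243). In the FOXO list Bcl6, a transcriptional repressor, rose by 0.81 (adjusted p = 0.00611), Txnip, an inhibitor of glucose uptake, rose by 0.45 (adjusted p = 0.00763), and Pik3ip1, an inhibitor of PI3-kinase, fell by 0.61 (adjusted p = 0.0208). In the glucocorticoid list the phosphatase gene Dusp1 rose by 0.50 (adjusted p = 0.0174) and the clock gene Per1 by 0.39 (adjusted p = 0.0226), while Tsc22d3 (GILZ), which glucocorticoids induce, fell by 0.31 (adjusted p = 0.0157). Part of the exons of Ankrd37 (26.4%) and of Txnip (19.4%) overlaps genes on the opposite strand. Among the members this also holds for Mpc1 (23.1%) and Pdha1 (16.1%). The strand setting of the counting is not given in the sources used here.

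**Figure D4:**
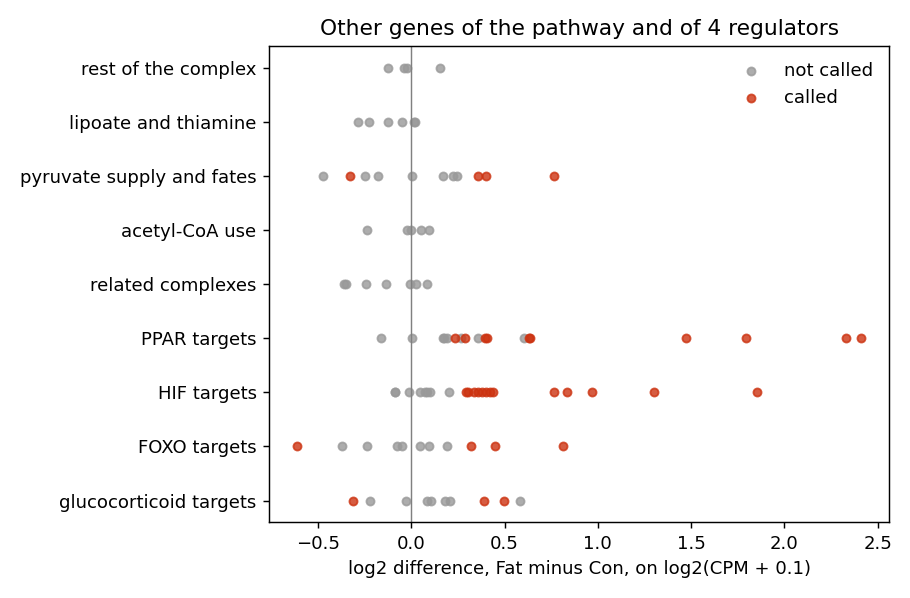
Log2 difference between Fat and Con (horizontal axis) of every tested gene in the 5 classes of the pathway list and the 4 regulator target lists, with called genes in red. The 4 calls of the pathway all sit in the pyruvate row, and the calls of the PPAR and HIF rows all lie to the right of 0.

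The genes whose pattern over the 4 libraries was most like that of Pdk4 were found by the root mean square difference of mean-centred log2(CPM + 0.1) values, among the 11679 other genes tested whose mean reached 1 CPM. They were Angptl4 (0.35), Hilpda (0.37), Ankrd37 (0.62), Ucp3 (0.68) and Acot1 (0.69), where the median gene stood at 1.52. Angptl4 was at 25.7 and 25.6 CPM in Con and at 133.3 and 140.2 CPM in Fat, well above the level of Pdk4 in every library. Acot1, an acyl-CoA thioesterase, was at 0.767 and 1.28 CPM in Con and at 2.84 and 4.20 CPM in Fat, and 25.1% of its stretches match Acot2 and other family members. With 4 libraries, likeness mostly reflects the size of the difference between the media.

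Adipocyte mRNA moved with the medium as well. The 10 adipocyte markers listed summed to 7 and 10 reads in Con and to 429 and 241 reads in Fat, or 0.206 and 0.267 CPM against 11.5 and 5.88 CPM. Adipoq, the adiponectin gene, gave 28 and 14 reads in Fat and 0 in either Con library, where Lep, Adrb3 and Thrsp were also at 0. Car3 alone gave 269 and 139 of the Fat reads. Of the 10 markers, 2 passed the filter, and limma called both higher in Fat, against 3.99% of all genes. Their median log2 difference was 4.47, above the 3.04 of Pdk4. Pdk4 is a gene that adipocytes also express. Its Fat values were 13.5 and 14.8 CPM, and the part of adipocyte RNA in these Pdk4 reads was not tested. Stromal markers summed to between 512.5 and 656.4 CPM, endothelial markers to between 4.58 and 7.56 CPM, neutrophil markers to between 243.0 and 280.4 CPM and lymphocyte markers to between 14.4 and 17.9 CPM, and erythroid markers to at most 2 reads. Of the 5 stromal markers tested, 4 were lower in both Fat libraries than in both Con libraries. Of these, Dcn, a matrix proteoglycan gene, fell (limma adjusted p = 0.0358), and 3 of the 5 had an unadjusted limma p-value under 0.05. Among all genes tested, the media did not overlap in 55.6% and 9.0% were called, in either direction. The stromal sums of the media still overlapped, as Col1a1 stood highest in Fat replicate 2. The media also overlapped in the neutrophil sums, while the endothelial sums were higher and the lymphocyte sums lower in both Fat libraries.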

How the data were processed

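Bulk RNA-seq of 4 libraries, 2 Con and 2 Fat, was grouped by the sample labels. The values deposited by the authors are CPM per gene, scaled further by factors between 0.990 and 1.01, and TPM values that the authors also scaled by gene length. The submitters' processing notes name GRCm39. The aligner and counter are not given in the sources used here. Whole reads were recovered from the CPM values (100% whole within 0.01).

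Fat was compared with Con by limma 3.58.1 under R 4.3.3, two-sided and with a variance trend, after taking log2(CPM + 0.1). The fit covered 12470 genes that reached 0.5 CPM in 2 libraries or more, with Benjamini-Hochberg adjustment over all of them and calls at an adjusted p-value under 0.05. All adjusted p-values are limma's. edgeR 4.0.16 and DESeq2 1.42.0 were run on the recovered reads. The fits were tested on simulated data. An exact permutation test of 2 libraries against 2 cannot go below p = 0.333, so none was used for single genes.

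The members and gene lists were chosen with earlier results of these data known. The text names all members, every called pathway gene (for a class without calls, its largest difference), the 3 largest calls per regulator list, the 5 genes most like Pdk4, and markers. Dlat, Dld and Pdhx were named beside Pdpr after their values were seen. Sequence sharing was measured by aligning 75-base stretches, at steps of 5 bases, to GENCODE vM21 transcripts, allowing 2 mismatches. Figures used matplotlib 3.10.9.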

Additional observations from a re-analysis of the deposited data

How the results depend on the processing

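Results were recomputed with a pseudocount of 1 CPM, without a filter, with TPM, after rescaling by median ratios, without the mean-variance trend, with edgeR and DESeq2, with the replicate number as a block and with each library left out. Calls over all genes were 407 with TPM, 31 without the trend, 2520 with the replicate block and between 529 and 1131 with 1 library left out, against 1122. For the members, which were selected on this comparison, the number called is no measure of stability. It was 1 without the trend, 5 with the block (Pdhb and Mpc2 added) and 2 or 3 with 1 library left out, against 3, and the 3 without Fat replicate 1 were other genes in part, with Mpc1 in place of Pdp1. Pathway genes called were 2 with TPM, 0 without the trend (limma, with 13 at an unadjusted p-value under 0.05), 11 with the block and between 1 and 4 with 1 library left out, against 4. The cause was not tested, though the fits with a library left out hold fewer samples. The replicate numbers are shared between groups by label only. The deviations of libraries with the same number correlated at 0.20 over 12470 genes, which are not independent, and with 2 pairs this does not show a pairing. The sign of the log2 difference was kept in every setting for 9 of the 10 members, all but Mpc1, and for the other named pathway and regulator target genes, among which Dlat, Dld and Pdhx were not followed across settings. Among these others, 35 combinations of gene and setting lost a call and 2 gained one. PPAR targets called were 3 without the trend, against 10, and HIF targets 1 without it and 8 with TPM, against 13. Glucocorticoid targets called by limma were 0 with TPM (3 at an unadjusted p-value under 0.05) and 0 without the trend (5), and FOXO targets 0 without the trend (6). edgeR and DESeq2 each called 3 glucocorticoid and 5 FOXO targets. Depth limits Pdk4 in Con, which rests on as few as 47 reads in a library. Mpc1 rests on as few as 72 reads, and its Fat replicates differed by 1.22 on the log2 scale, beyond their counting intervals.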
